A study of Arabidopsis thaliana with 21 samples.

Results

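The WRKY transcription factors are a plant family of DNA-binding proteins named after a conserved stretch of 7 residues in their zinc-finger domain. The set described here is a list of 51 WRKY genes of Arabidopsis thaliana, found by locus identifier among the 25263 genes of the deposited table. A member was kept where its mean over the libraries was at least 1, and all 51 passed, with means from 2.1 to 1303 normalised counts, 6 of them under 10. The rule used the family name and overall abundance and no difference between groups. The list itself was chosen with earlier results of these data known and does not hold the whole family. Of the family, 21 further genes were listed, of which 19 stood in the table and 15 had a mean of at least 1.

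RNA came from whole 10-day-old seedlings grown on agar, either of the wild type Col-0 or of Col-0 transformed to over-express 1 of 3 inositol phosphorylceramide synthase genes, AtIPCS1, AtIPCS2 or AtIPCS3, from full-length cDNA in the vector pK7WG2, which carries a constitutive viral promoter. Inositol phosphorylceramide synthase makes a complex sphingolipid from ceramide. Each isoform was represented by a line labelled + for the lower and a line labelled ++ for the higher over-expression (At1+, At1++, At2+, At2++, At3+ and At3++), so each group is 1 transformed line, and all groups share the Col-0 background. There were 3 libraries a group, which the study calls both experimental replicates and technical triplicates, so the p-values measure the spread between libraries of a line, which may be technical.

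The 20 libraries used held 12733113 to 17210244 reads on genes. Replicates 1 and 2 of At3+ held the same value in all 25263 genes and were counted as 1 library, which leaves n = 2 for At3+ and n = 3 for every other group. AtIPCS1 stood at 172 ± 6.51 normalised counts in Col-0 (mean ± SD), 17726 ± 1095 in At1+ and 45370.1 ± 4194 in At1++. For AtIPCS2 the label At2+ went with the higher level (22612 ± 600.5) and At2++ with the lower (12630.5 ± 475, Col-0 823 ± 29.7). Likewise AtIPCS3 was higher in those labelled At3+ (11933 ± 1310.1) than At3++ (5802 ± 326, Col-0 57.7 ± 5.04), so the names below are those of the libraries' labels and a change from + to ++ follows the labels, not the transcript. In the study's own listing of detected genes by library, the libraries of AtIPCS2 and of AtIPCS3 stand under the name of the other line of the same isoform, while those of Col-0 and AtIPCS1 stand under the labels used here. The study's fold changes of PR1 and of chloroplast genes in the AtIPCS3 lines go with the labels used here, as do those of SARD1 in the AtIPCS2 lines. Its chloroplast genes are higher in At2++ than in At2+, whereas the share of chloroplast reads here was higher in At2+. The + and ++ of these isoforms may thus be exchanged in part of the sources, and a direction from + to ++ in AtIPCS2 or AtIPCS3 holds for the labels only. Every leaf, root and trichome marker listed was read in every group, and the summed leaf markers ran from 463729 to 516799 in Col-0 to 837691 to 1123650.0 in At2++. Of 6 leaf markers, 1 was lower in every line and 1 or 2 were higher in the AtIPCS2 lines, At1++ and At3++. In those lines 3 of 8 root markers were also higher, and 1 of 4 trichome markers was higher in At1++ and At2+. The shares of all genes lower or higher in each line stand with the WRKY counts below. All 10 seed markers (storage proteins and oleosins) were higher than in Col-0 in every line, with a summed level of 18.4 to 22.3 in Col-0, where SESA2, SESA3, SESA4 and CRB were at 0, and, in ascending order, of 574 to 1044 in At3+, 1802 to 3048 in At1+, 2824 to 3092 in At2++, 6114 to 7810.3 in At2+, 13077 to 16330.1 in At3++ and 30720.4 to 34965 in At1++. The part of this difference in the WRKY levels below was not tested, and in whole seedlings fewer cells of a type and less RNA per cell cannot be told apart.

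WRKY proteins bind a short DNA element called the W box and are best known as regulators of defence, salicylic acid and jasmonate responses, senescence and abiotic stress. Many WRKY genes carry W boxes themselves and regulate each other, and MAP kinases and proteins with a VQ motif are known partners of some of them. By domain, the family is divided into subgroup I with 2 WRKY domains (11 members here), subgroup II with 1 domain, split into IIa (3), IIb (5), IIc (11), IId (7) and IIe (5), and subgroup III with a different zinc finger (9). The annotated coding sequences were searched for the features that define subgroups I and III. They held 2 copies of the 7-codon stretch in all 11 members of subgroup I and 1 copy in each of the 40 others. A zinc finger ending in cysteine was found in the 9 members of subgroup III and in 0 of the others. The split of subgroup II was not checked. All 51 locus identifiers matched RefSeq's gene models on TAIR10.1, which supply the positions below. The bases that encode the stretch, from its first residue tryptophan on, are shown for 5 members on which the results turn, with the codon that varies within the family in capitals.
WRKY46 (subgroup III, chr2:19044313-19044333, minus strand): tggagaaaatatgggCAAaaa
WRKY70 (subgroup III, chr3:20909760-20909780, minus strand): tggaggaaatatggaCAAaag
WRKY60 (subgroup IIa, chr2:10630643-10630663, plus strand): tggaggaaatacgggCAAaag
WRKY45 (subgroup IIc, chr3:326932-326952, minus strand): tggaggaagtacggcCAAaaa
WRKY51 (subgroup IIc, chr5:25908864-25908884, plus strand): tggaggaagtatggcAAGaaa
The capital codon encodes glutamine in 60 of the 62 stretches and lysine in WRKY50 and WRKY51, both subgroup IIc and both known from the crosstalk of salicylic acid and jasmonate signalling.

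Most of the WRKY genes that differed from Col-0 were lower in the over-expressing lines, and in AtIPCS1 they were lower mainly in the line labelled ++. A gene was called where limma's adjusted p over the 22222 genes tested was under 0.05 and the difference from Col-0, as a log2 fold change of value + 1, was at least 1 in either direction. In At1++, 15 of the 51 were lower and 0 higher, where 5.02% of all genes tested were lower and 4.06% higher. In At2++ 11 were lower (4.91% of all genes) and 0 higher (5.9%), and in At2+ 8 were lower (2.69%) and 0 higher (4.76%). In At3++ 6 were lower (2.31%) and 0 higher (4.04%). At1+ had 3 lower (1.96%) and 1 higher (1.78%), and At3+ had 3 lower (1.18%) and 1 higher (0.594%). In either direction, the share of all genes called was 3.74%, 9.09%, 7.45%, 10.8%, 1.78% and 6.35% in the order At1+ to At3++. The 6 comparisons share the Col-0 libraries. Without either At3+ library, 2 members were called in At3+ in place of 4. As a share of the 51 members, the lower genes made up 5.88% in each of At1+ and At3+, 11.8% in At3++, 15.7% in At2+, 21.6% in At2++ and 29.4% in At1++. Where limma called 0 higher, an unadjusted p under 0.05 with a positive fold change was reached by 0 members in At1++, 3 in At2+, 1 in At2++ and 5 in At3++, edgeR called 1 higher in At1++ and 0 in the other 3, and DESeq2 called 0 in all 4.

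**Figure D1:**
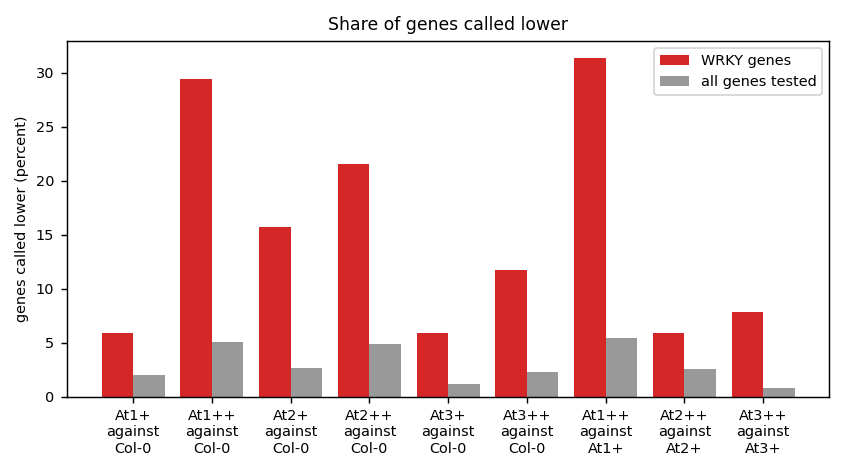
Share of genes called lower (percent, y axis) among the 51 WRKY genes (red) and among all 22222 genes tested (grey) for the 6 lines against Col-0 and for ++ against + within each isoform. The WRKY share runs from 5.88% to 31.4% and the share of all genes from 0.774% to 5.44%.

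The median log2 fold change of the 51 members was -0.61 in At2++, -0.59 in At1++, -0.36 in At3++, -0.34 in At2+, -0.07 in At3+ and 0.05 in At1+, beside medians of all genes tested within 0.02 of 0. When each library was rescaled to its total over nuclear genes, the median of all genes stood at -0.21 in At2+, -0.23 in At2++, -0.16 in At3++, -0.10 in At1+ and At1++ and -0.03 in At3+. Under that scaling the members' median was -0.81 in At2++, -0.69 in At1++, -0.55 in At2+, -0.51 in At3++, -0.10 in At3+ and -0.04 in At1+, so its sign changed in At1+ alone, and relative to the median of all genes the members stood lower in At1++, At2+, At2++, At3+ and At3++ under both scalings. Chloroplast-encoded genes made up 0.0330% to 0.0687% of the reads in Col-0 and at most 0.990%, in At2+. The count of lower members in At2++ was 20 under that scaling, where 7.18% of all genes were lower. Without a minimum fold change, At1+ had 15 members higher and 6 lower, or 12 and 8 with the nuclear scaling. At1++ had 0 higher and 31 lower. The share of all genes under that rule was not counted. At limma's unadjusted p under 0.05, 8379 of the 22222 genes differed in At1+ and 10333 in At1++. Of the 51 members, 20 were higher and 8 lower at that p in At1+, and 0 and 34 in At1++.

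Of the 51, 32 were called in no line, 5 in 1 line, 5 in 2, 3 in 3, 6 in 4 and 0 in more than 4. The lines share the Col-0 libraries, so calls of a gene in several lines are not independent. Among all genes, 66 were called lower in all 6 lines. The share of all genes called in at least 3 lines was not counted, so whether the members recurred more often than other genes cannot be told. The number of members called differed between the subgroups. Of the 9 members of subgroup III, 6 were lower in At1++, 4 in At2++, 3 in each of At1+, At2+ and At3+ and 2 in At3++, and 1 was higher in At3+. With the nuclear scaling 7 were lower in At2++ and 4 in At3++, while edgeR, which tested 7 of the 9, called 4 lower in At1++ and 2 in each of At2+ and At2++, with 2 higher in At3+, and DESeq2 called 2 lower in At2+. All 3 members of subgroup IIa were lower in At1++, and 1 of them in At2+, At2++ and At3++. Subgroup IIc had 3 of 11 lower in At1++, At2+ and At3++, 4 in At2++ and 0 in At1+ and At3+. Limma called 0 of the 7 members of subgroup IId in any of the 6 lines, and so did edgeR and DESeq2, with log2 fold changes from -0.34 (WRKY74 in At2++) to 0.84 (WRKY15 in At1+) and an unadjusted p under 0.05 in 1 to 5 members per line. WRKY11 and WRKY17 of that subgroup are known as negative regulators of basal resistance. No test compared the subgroups.

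**Figure D2:**
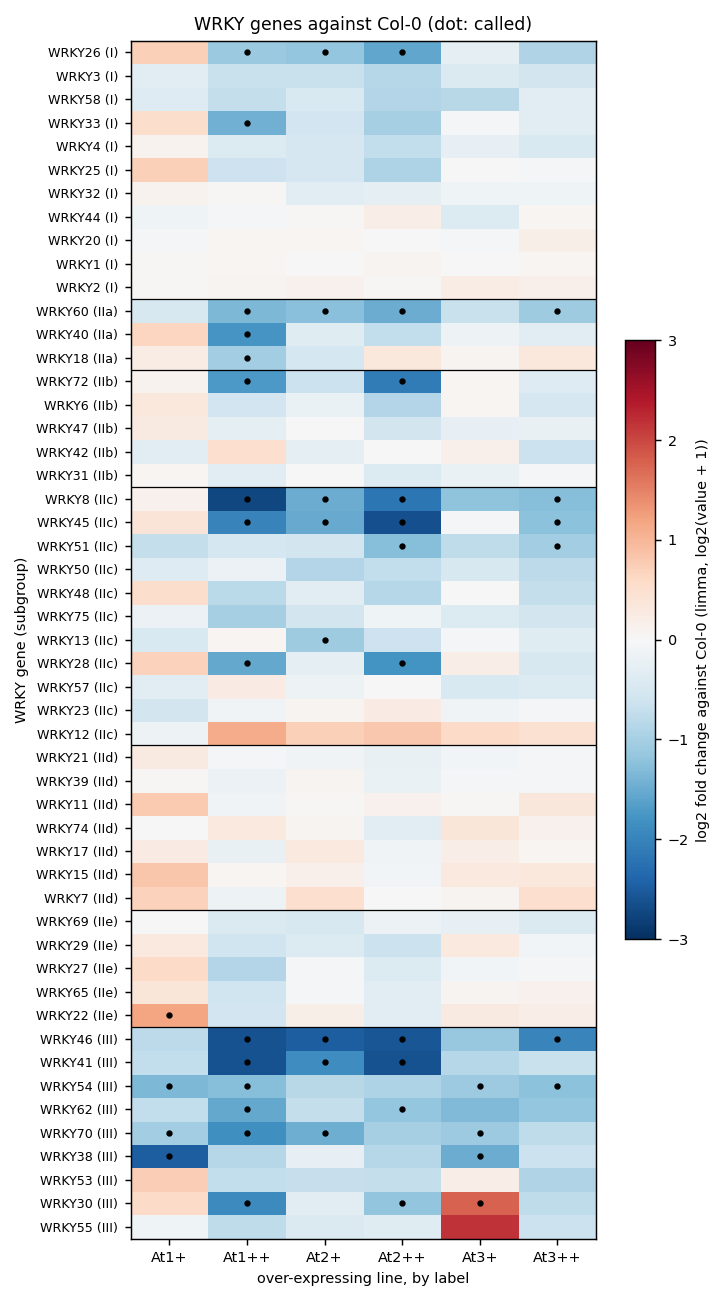
Log2 fold change against Col-0 (colour, blue lower, red higher) of the 51 WRKY genes (rows, in subgroups) in the 6 over-expressing lines (columns), with a dot where the gene was called. Dots gather in subgroups IIa, IIc and III and none stands in subgroup IId, and the red cells of At1+ lie beside blue ones in At1++.

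The members called in at least 3 lines are given in every library, beginning with subgroup III, whose members WRKY70, WRKY54, WRKY46, WRKY41 and WRKY30 were among them. WRKY70 (AT3G56400, chr3:20908711-20910623, minus strand, 3 exons) integrates salicylic acid and jasmonate signals, promoting the former and holding back senescence. It was read at 788, 749.6 and 850.0 normalised counts in the Col-0 libraries, at 404, 399 and 359 in At1+ and at 242, 205 and 221 in At1++. It stood at 267, 319 and 279.9 in At2+, 384, 423 and 397 in At2++, 395 and 352 in At3+ and 464, 452 and 496 in At3++. Every library of every line lay below every Col-0 library, and At1++ was the lowest group. The fitted difference on the log2 scale was -1.83 (standard error 0.08, limma adjusted p = 5.50e-15) in At1++, -1.46 (standard error 0.08, limma adjusted p = 6.16e-13) in At2+, -1.09 (standard error 0.09, limma adjusted p = 1.09e-08) in At3+ and -1.04 (standard error 0.08, limma adjusted p = 7.90e-10) in At1+. In At2++ (-0.99) and At3++ (-0.76) the adjusted p passed (5.14e-10 and 1.11e-07) but the fold change did not reach 1. The value in At2++ passed it with the nuclear scaling (-1.20), without Col-0 replicate 2 (-1.03) and without At2++ replicate 2 (-1.02). The call in At1+ was lost without Col-0 replicate 3 (-0.99) or At1+ replicate 3 (-0.98).

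WRKY54 (AT2G40750, chr2:17000419-17002528, minus strand, 3 exons), the closest relative of WRKY70 and a co-repressor of senescence with it, was also below Col-0 in every library of every line. It was read at 153, 136 and 131 in Col-0, at 63.2, 47.4 and 53.2 in At1+ and at 56.1, 64.1 and 50.5 in At1++. It stood at 82.0, 74.2 and 77.4 in At2+, 87.7, 64.6 and 68.2 in At2++, 63.2 and 67.1 in At3+ and 76.5, 51.3 and 52.7 in At3++. Unlike WRKY70, its 2 AtIPCS1 lines overlapped. It was lower in 4 lines, with log2 fold changes of -1.35 (standard error 0.16, limma adjusted p = 5.61e-07) in At1+, -1.29 (standard error 0.16, limma adjusted p = 5.05e-07) in At1++, -1.23 (standard error 0.16, limma adjusted p = 1.35e-06) in At3++ and -1.09 (standard error 0.18, limma adjusted p = 0.000211) in At3+. The values in At2+ (-0.84) and At2++ (-0.93) fell short of the minimum fold change, and passed it with the nuclear scaling (-1.05 and -1.15), the latter also without At2++ replicate 1 (-1.06).

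WRKY46 (AT2G46400, chr2:19043411-19044955, minus strand, 3 exons) acts with WRKY70 and WRKY53 in basal resistance and is also known from osmotic and iron responses. Its Col-0 libraries held 66.8, 75.7 and 74.6, the At1+ libraries 42.8, 51.8 and 32.9 and the At1++ libraries 19.8, 6.57 and 9.72. The At2+ libraries held 10.3, 10.4 and 16.6, those of At2++ 5.98, 25.0 and 9.60, those of At3+ 35.6 and 29.6 and those of At3++ 9.17, 20.9 and 27.6. No line overlapped Col-0, and replicates within At1++, At2++ and At3++ differed from each other more than those of Col-0. The log2 fold changes of the 4 lines called were -2.62 (standard error 0.40, limma adjusted p = 9.46e-06) in At1++, -2.56 (standard error 0.40, limma adjusted p = 8.49e-06) in At2++, -2.48 (standard error 0.40, limma adjusted p = 1.82e-05) in At2+ and -1.98 (standard error 0.40, limma adjusted p = 0.000342) in At3++. In At1+ (-0.77, limma adjusted p = 0.161) and At3+ (-1.13, 0.127) it was not called, although edgeR (adjusted p = 0.0117) and DESeq2 (0.0254) called it in At3+.

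WRKY41 (AT4G11070, chr4:6759098-6760794, plus strand, 3 exons), known as an activator of ABI3 in seed dormancy, was near the limit of detection. Its values were 5.56, 5.61 and 4.39 in Col-0, 2.92, 5.51 and 0.968 in At1+ and 1.28, 0 and 1.11 in At2+, with 0 in all libraries of At1++ and At2++. They were 1.78 and 3.20 in At3+ and 5.10, 1.05 and 3.6 in At3++, and At1+ and At3++ overlapped Col-0. Col-0 held 17 reads over its 3 libraries. Set to a floor of 3 reads over a group, WRKY41 was 5.87-fold lower in At1++ (limma adjusted p = 0.000365) and 5.18-fold lower in At2++ (0.000245). The 95% exact intervals of the 0 reads there began at 4.28-fold and 3.77-fold lower (counting error only). The 2 reads of At2+ gave a value 6.59-fold lower (95% exact interval 1.56 to 58.8, counting error only, limma adjusted p = 0.00671), and DESeq2 did not call it (0.0823).

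WRKY30 (AT5G24110, chr5:8153115-8154710, minus strand, 3 exons), known from responses to oxidative stress, was the sole member called lower in some lines and called higher in another. With no minimum fold change other members also went both ways, such as WRKY26 (4 lines lower, 1 higher) and WRKY18 (2 and 2). Col-0 libraries stood at 7.42, 12.2 and 12.3, At1+ at 15.6, 18.7 and 13.6 and At1++ at 0.863, 4.11 and 1.94. At2+ stood at 6.41, 10.4 and 7.74, At2++ at 2.99, 7.29 and 2.88, At3+ at 39.2 and 36.0 and At3++ at 6.12, 6.28 and 4.79. Both At3+ libraries lay above every Col-0 library, whereas At1++, At2++ and At3++ lay below all of them. The fitted difference on the log2 scale was -1.91 (standard error 0.37, limma adjusted p = 0.000183) in At1++ and -1.17 (standard error 0.37, limma adjusted p = 0.00991) in At2++, and the gene rose in At3+ with 1.76 (standard error 0.41, limma adjusted p = 0.00646). The rise was lost without At3+ replicate 1 (adjusted p = 0.0865) or replicate 3 (0.0579), each of which leaves 1 library in the group, assumed to vary as the others do. The value in At2++ came to -0.98 without At2++ replicate 3.

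Outside subgroup III, WRKY60 of subgroup IIa, WRKY8 and WRKY45 of subgroup IIc and WRKY26 of subgroup I were called in at least 3 lines. WRKY60 (AT2G25000, chr2:10629662-10631413, plus strand, 5 exons) works with WRKY18 and WRKY40 in abscisic acid responses and in resistance to mildew. Its libraries held 113, 125 and 119 in Col-0, 73.0, 83.8 and 101 in At1+ and 52.6, 46.0 and 39.8 in At1++. They held 53.8, 37.1 and 59.7 in At2+, 46.8, 31.3 and 49.0 in At2++, 73.0 and 77.5 in At3+ and 56.1, 50.2 and 63.5 in At3++. All libraries of all 6 lines were below Col-0, with the + lines of AtIPCS1 and AtIPCS3 nearest to it. WRKY60 was called at -1.50 (standard error 0.19, limma adjusted p = 2.68e-07) in At2++, -1.36 (standard error 0.19, limma adjusted p = 1.86e-06) in At1++, -1.26 (standard error 0.19, limma adjusted p = 5.35e-06) in At2+ and -1.07 (standard error 0.19, limma adjusted p = 6.11e-05) in At3++. The last of these values came to -0.99 without At3++ replicate 2.

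WRKY8 (AT5G46350, chr5:18801164-18804056, minus strand, 3 exons), known from wounding and salt responses, was read at 25.0, 34.6 and 30.7 in Col-0, at 36.0, 36.4 and 26.1 in At1+ and at 7.77, 4.93 and 0.972 in At1++. It was at 11.5, 5.79 and 14.4 in At2+, 8.97, 3.13 and 6.72 in At2++, 10.7 and 14.4 in At3+ and 13.3, 12.6 and 9.59 in At3++. At1+ overlapped Col-0 and every other line lay below it. Its log2 fold changes were -2.72 (standard error 0.42, limma adjusted p = 9.77e-06) in At1++, -2.18 (standard error 0.42, limma adjusted p = 0.000108) in At2++, -1.50 (standard error 0.42, limma adjusted p = 0.00511) in At2+ and -1.28 (standard error 0.42, limma adjusted p = 0.0173) in At3++. The call in At3++ was lost without Col-0 replicate 2 (adjusted p = 0.0589) or At3++ replicate 3 (0.0662), and At3+ (-1.20, limma adjusted p = 0.117) was called by edgeR (adjusted p = 0.0140), by DESeq2 (0.0357) and by limma without At1++ replicate 3 (0.0433).

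WRKY45 (AT3G01970, chr3:325952-327412, minus strand, 2 exons) is known as an activator of a phosphate transporter gene. It stood at 138, 142 and 127 in Col-0, at 195, 169 and 173 in At1+ and at 32.8, 31.2 and 36.0 in At1++. The AtIPCS2 lines held 48.7, 37.1 and 56.4 (At2+) and 15.9, 27.1 and 21.1 (At2++), and the AtIPCS3 lines 131 and 133 (At3+) and 53.0, 52.3 and 68.3 (At3++). At3+ overlapped Col-0, At1+ lay above it and the other 4 lines lay below. The gene was called at -2.64 (standard error 0.17, limma adjusted p = 3.90e-12) in At2++, -2.0 (standard error 0.17, limma adjusted p = 1.05e-09) in At1++, -1.52 (standard error 0.17, limma adjusted p = 1.08e-07) in At2+ and -1.23 (standard error 0.17, limma adjusted p = 3.81e-06) in At3++. In At1+ the value was 0.39 (limma adjusted p = 0.0954).

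WRKY26 (AT5G07100, chr5:2204206-2205965, plus strand, 5 exons), which acts with WRKY25 and WRKY33 in heat responses, was read at 276, 287 and 281 in Col-0, 493, 458 and 437 in At1+ and 152, 131 and 112 in At1++. Its AtIPCS2 lines held 117, 129 and 133 (At2+) and 94.7, 79.2 and 115 (At2++), and its AtIPCS3 lines 232 and 225 (At3+) and 148, 143 and 156 (At3++). All libraries of At1+ were above Col-0 and those of the other 5 lines below it. The fitted difference on the log2 scale was -1.55 (standard error 0.12, limma adjusted p = 5.24e-11) in At2++, -1.15 (standard error 0.12, limma adjusted p = 1.55e-08) in At2+ and -1.10 (standard error 0.12, limma adjusted p = 3.50e-08) in At1++. Without At1++ replicate 3 the last value was -0.99. In At1+ it was 0.71 (adjusted p = 4.82e-05) and in At3++ -0.91 (9.16e-07), both short of the minimum fold change, and At3++ passed it with the nuclear scaling (-1.06).

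**Figure D3:**
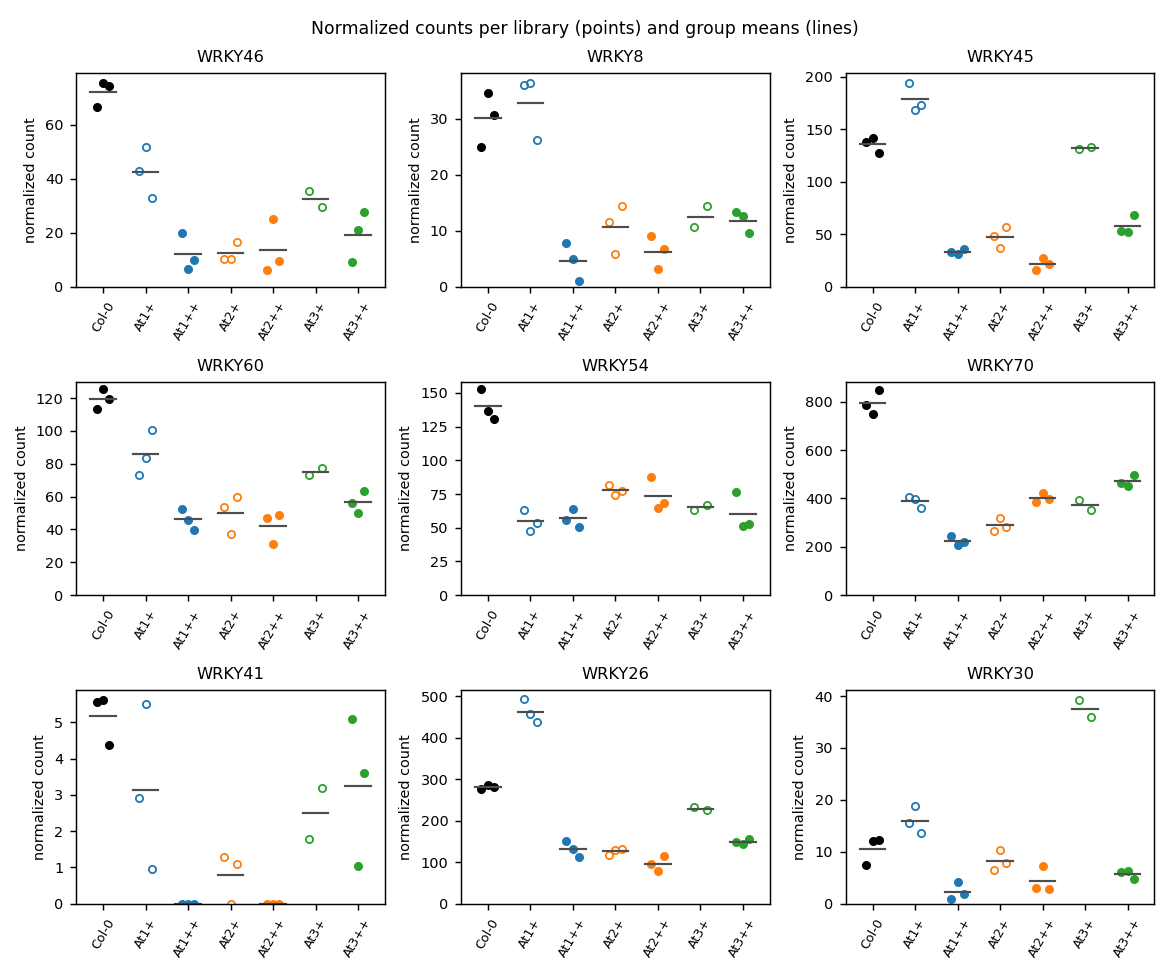
Normalised counts (y axis, linear from 0) of the 9 WRKY genes called in at least 3 lines, in each library (points, open for + lines, filled for Col-0 and ++ lines) with the group mean as a line. WRKY45, WRKY26 and WRKY8 stand at or above Col-0 in At1+ and below it in At1++, whereas WRKY54 and WRKY70 are below Col-0 in both.

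The other 10 members called against Col-0 passed in 1 or 2 lines. Of subgroup III, WRKY38 and WRKY62, both negative regulators of basal defence, were called in different lines. WRKY38 ranged over 25.2 to 52.7 in Col-0, 2.92 to 7.72 in At1+ and 11.2 to 12.5 in At3+, and fell in both lines with log2 fold changes of -2.48 and -1.48. The latter call was lost without Col-0 replicate 3 (adjusted p = 0.0538) or either At3+ library (0.0525 and 0.0807). WRKY62 ranged over 6.49 to 14 in Col-0 and was called at -1.53 in At1++ and -1.16 in At2++. The first call was lost without Col-0 replicate 3 (adjusted p = 0.0790) or At1++ replicate 2 (0.108). The second was lost with DESeq2 (0.0835), with a pseudocount of 0.1 (0.0860) and without any 1 of 9 libraries (adjusted p from 0.0503 to 0.191): Col-0 replicates 2 and 3, At1+ replicate 2, At1++ replicate 3, At2++ replicates 2 and 3 and all 3 of At3++.

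The remaining members of subgroup IIa were called in At1++ and in no other line: WRKY40 at -1.76 (standard error 0.14, limma adjusted p = 1.52e-10) and WRKY18 at -1.05 (standard error 0.10, limma adjusted p = 3.71e-09), the latter coming to -0.93 without At1++ replicate 3. WRKY33, needed for camalexin synthesis and resistance to necrotrophic fungi, was called at -1.45 (standard error 0.10, limma adjusted p = 5.80e-12) in At1++, where its libraries ranged over 208 to 267 against 601 to 666 in Col-0. Its value in At2++, -1.0 on the log2 scale, was just short of the minimum fold change. WRKY28, an activator of the salicylic acid synthesis gene ICS1, had -1.53 in At1++ and -1.80 in At2++. WRKY72, a regulator of basal defence, was called in the same lines, with -1.72 and -2.09. WRKY51 was called lower in At2++ (-1.27) and At3++ (-1.04), and the second value was -0.92 without Col-0 replicate 3 and -0.99 without At3++ replicate 2 or replicate 3. At limma's adjusted p under 0.05 alone, WRKY51 was lower in all 6 lines. WRKY13, known from stem development, was called at -1.06 in At2+ although its libraries there (5.79 to 12.2) overlapped those of Col-0 (11.1 to 25.2), and the call was lost without Col-0 replicate 2 (adjusted p = 0.0885), Col-0 replicate 3 (0.0600) or At2+ replicate 2 (0.0810). WRKY22, which acts below a MAP kinase cascade set off by bacterial flagellin, was the other member called higher in a line. It held 318 to 363 in At1+ against 131 to 167 in Col-0, with a log2 fold change of 1.18 (standard error 0.12, limma adjusted p = 3.32e-08).

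The 32 members called in no line held most of subgroups I, IIb, IIc, IId and IIe. WRKY1, WRKY2, WRKY20 and WRKY44 of subgroup I stayed between -0.41 and 0.22 on the log2 scale in every line, WRKY44 being known from trichome and seed coat development. WRKY3 and WRKY4, which act against necrotrophic fungi, had values from -0.86 to -0.34 and from -0.73 to 0.11. At limma's adjusted p under 0.05 alone, WRKY3 was lower in all 6 lines and WRKY4 in 4. WRKY75, like WRKY45 a regulator of phosphate uptake, had -0.99 in At1++. WRKY12 of subgroup IIc, a repressor of secondary walls, had the highest value in At1++ of the members limma did not call, 1.11 (limma adjusted p = 0.187). Its libraries stood at 15.5, 13.1 and 1.94 there and 5.56, 1.87 and 2.63 in Col-0. In that line edgeR called 1 member of subgroup IIc higher, where limma called 0. WRKY55, whose locus number is next to that of WRKY54, had 2.16 in At3+ (limma adjusted p = 0.0882), from libraries at 11.6 and 12.8 against 3.71, 0 and 4.39 in Col-0. Of its subgroup III, edgeR called 2 members higher in At3+, where limma called 1, WRKY30.

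The lines of each isoform were then compared with each other. In At1++ against At1+, 16 members were lower and 1 higher, or 31.4% lower where 5.44% of all genes were lower and 5.63% higher. Lower members, with their log2 fold changes, included WRKY8 (-2.84), WRKY30 (-2.47), WRKY40 (-2.41), WRKY45 (-2.39), WRKY28 (-2.21), WRKY33 (-1.97), WRKY46 (-1.85), WRKY26 (-1.82) and WRKY72 (-1.81). WRKY22 (-1.75), WRKY53 (-1.48), WRKY27 (-1.45), WRKY48 (-1.35), WRKY25 (-1.33) and WRKY18 (-1.27) were lower too, WRKY53 being a promoter of leaf senescence and WRKY48 a negative regulator of defence against bacteria. WRKY41 had 9 reads in At1+ and 0 in At1++, 3.44-fold lower when set to the floor of 3 reads. The 95% exact interval of the 0 reads began at 2.27-fold lower (counting error only). WRKY38 was the 1 member higher in At1++, by 1.61 (standard error 0.31, limma adjusted p = 0.000129), with 15.5 to 24.3 against 2.92 to 7.72. In either direction, 11.1% of all genes were called. The ranges of the At1+ and At1++ libraries did not overlap for these 17, nor for WRKY3, WRKY4 and other members not called. The share of all genes with such ranges was not counted. All 17 calls held in every alternative tried, except that edgeR did not test WRKY41.

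Between the lines of AtIPCS2 and of AtIPCS3 fewer members differed. In At2++ against At2+, WRKY28 (-1.51), WRKY72 (-1.44) and WRKY45 (-1.12) were lower and 0 members higher, where 2.57% and 1.11% of all genes were (3.68% either way), with an unadjusted p under 0.05 and a positive value in 4 members and 0 higher by edgeR or DESeq2. WRKY45 came to -0.94 without At2++ replicate 1 and -0.99 without At2+ replicate 3. In At3++ against At3+, WRKY30 (-2.53), WRKY45 (-1.19), WRKY53 (-1.09) and WRKY55 were lower and 0 higher, where 0.774% and 2.94% of all genes were, with 7 positive members at an unadjusted p under 0.05 and 0 higher by edgeR or DESeq2. WRKY55 had 29 reads in At3+ and 3 in At3++, which is 11.3-fold lower (95% exact interval 3.50 to 57.9, counting error only), and its call was lost without At3++ replicate 2 (adjusted p = 0.0550) or either At3+ library (0.0623 and 0.0939). WRKY53 came to -0.99 without At3++ replicate 1. WRKY45 was the 1 member called in all 3 of these comparisons.

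**Figure D4:**
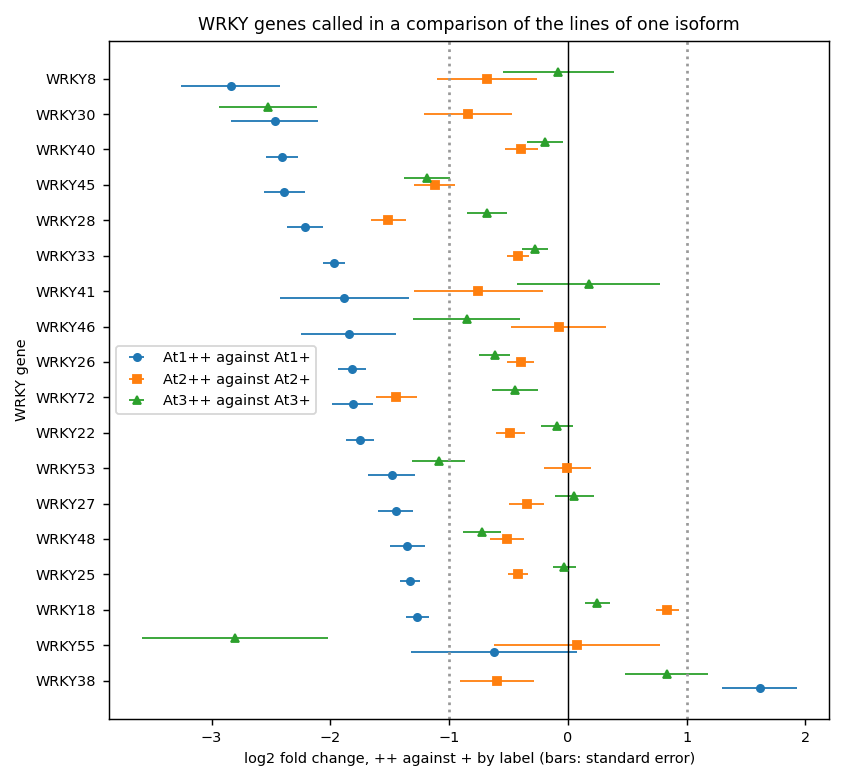
Log2 fold change of ++ against + by label (x axis, points with standard errors) of the 18 WRKY genes called in at least 1 of the comparisons within AtIPCS1 (circles), AtIPCS2 (squares) or AtIPCS3 (triangles). The AtIPCS1 points lie left of -1 for 16 genes and right of 1 for WRKY38, and dotted lines mark -1 and 1.

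The change from + to ++ was also compared between isoforms. It was lower for AtIPCS1 than for AtIPCS2 in 13 members and higher in 1, where 3.03% and 3.71% of all genes were, and lower than for AtIPCS3 in 15 and higher in 1, where 5.3% and 2.62% were (6.75% and 7.92% of all genes in either direction). The contrasts share the AtIPCS1 libraries. With the order of the AtIPCS2 lines turned, an alternative chosen after seeing the data, 22 members were lower and 1 higher, where 7.93% and 8.55% of all genes were, and 10 of the 14 called by label were among them. With the order of the AtIPCS3 lines turned, 19 were lower and 1 higher, where 6.62% and 9.71% of all genes were, and 11 of the 16 called by label were among them. For WRKY8 the difference of log2 fold changes was -2.16 against AtIPCS2 and -2.76 against AtIPCS3, for WRKY40 -2.02 and -2.22, and for WRKY33 -1.55 and -1.69. In the turned order these were -3.52 and -2.92 for WRKY8, -2.80 and -2.60 for WRKY40, and -2.39 and -2.25 for WRKY33, all called. Genes that respond within minutes to touch and wounding also differed between the AtIPCS1 lines. Of 10 such genes listed, 5 were higher in At1+ than in Col-0 (1.78% of all genes), and 8 were lower in At1++ than in At1+ (5.44%). Against Col-0, 3 were lower in At1++ (5.02% of all genes), 1 in At2+ (2.69%) and 1 in At3+ (1.18%). In At2++ 1 was lower (4.91%) and 2 higher (5.9%), and in At3++ 1 was lower (2.31%) and 1 higher (4.04%). Their summed level was 10968 to 11867 in At1+, 7417 to 8103 in At3++, 6920.3 to 7590.3 in At2++, 6193 to 6466 in At3+, 4642 to 4919 in At2+, 4518 to 5202 in At1++ and 4559.6 to 4691 in Col-0, with 0 of the 10 at 0 in any group. Several WRKY genes, WRKY40 and WRKY33 among them, are known to respond to the same stimuli, and the part of this list in the WRKY levels was not tested.

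Other genes of the pathways were counted in the same fit. Of 16 genes of salicylic acid synthesis and response, 9 were lower in At1++, 6 in each AtIPCS2 line, 5 in At3++ and 3 in At1+ and At3+, and 0 were higher in any line by limma, edgeR or DESeq2, with 0 to 2 higher per line at an unadjusted p under 0.05. PR1, a marker of the salicylic acid response, stood at 1703 ± 103 in Col-0, 161 ± 24.9 in At1+, 69.2 ± 8.41 in At3+, 55.3 ± 0.970 in At3++, 6.39 ± 8.69 in At1++, 5.58 ± 1.83 in At2+ and 1.67 ± 0.586 in At2++. PR2, a glucanase, was lower in all 6 lines as well, PR5 in 5, SARD1, a regulator of salicylic acid synthesis, in 4, and the NPR1 interactors NIMIN1 and NIMIN2 in 3 each. SARD1 had -1.58 in At1++, -1.31 in At2+, -1.87 in At2++ and -1.30 in At3+ on the log2 scale. Limma, edgeR and DESeq2 called 0 of the 8 genes of MAP kinase cascades in any line, with log2 fold changes from -0.44 (MKK2 in At1++) to 0.46 (MEKK1 in At1+) and an unadjusted p under 0.05 in 1 to 7 of them per line.

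The shares of all genes given with the preceding lists apply to the counts here as well. A count of 1 gene in a list was not read as a difference from them. Of 23 VQ-motif genes listed, 20 were in the table and 19 tested. Of these, 5 were lower in At1++, 3 in At2++, 2 in At2+ and 1 in each of At1+, At3+ and At3++, while 2 were higher in At1+ and 1 in At3++. SIB1, a partner of WRKY33, was lower in 5 lines, with log2 fold changes of -1.41 in At2+, -1.39 in At2++, -1.32 in At1++, -1.10 in At3+ and -1.04 in At1+, and -0.67 uncalled in At3++. Of the 5 camalexin and ethylene genes known as WRKY33 targets, 2 were lower in At1++, At2+ and At2++, and 1 in At3++, with 1 higher in At3+. CYP71A13, an enzyme of camalexin synthesis, was called in 3 lines, at 22.4 ± 4.80 in Col-0, 2.82 ± 2.62 in At1++, 11.2 ± 11.6 in At2+ and 0.999 ± 0.0411 in At2++, and its At2+ libraries overlapped Col-0. Of 10 clock genes, 6 were lower in At1++, 5 in At2+, At2++ and At3++ and 2 in At3+. Of the 3 senescence genes tested, 3 were lower in At2++ and 1 in each of At1++, At2+, At3+ and At3++. The time of harvest for each group is not given in the sources used here, and the part of the clock list was not tested. Of the 15 WRKY genes tested outside the list of 51, WRKY59 was lower in At1++ (-1.68) and At2++ (-1.72), WRKY61 lower in At1++ (-1.52) and WRKY43 higher in At2++ (2.01), named here after their values were seen. Where limma called 2 lower in At1++, and 1 lower and 1 higher in At2++, edgeR called 1 lower in At1++ and 0 either way in At2++, DESeq2 called 2 lower in At1++ and 0 lower and 1 higher in At2++, and the nuclear scaling gave 2 lower in each and 1 higher in At2++. In the other 4 lines limma and DESeq2 called 0 of these and edgeR 1 higher in At1+, with 0 to 5 per line at an unadjusted p under 0.05.

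The W box, searched as TTGACC or TTGACT on both strands, was counted in the 250 bases before the annotated start of each gene. At least 1 was found in 19 of the 51 members (37.3%) and in 28.4% of 27443 protein-coding genes, and at least 2 in 19.6% and 6.18%. Of the 8 members lower in at least 3 lines (the 9 above without WRKY30), 3 had one, as did 11 of the 32 called in no line. The windows of WRKY30, with 3 boxes, and WRKY46, with 0, are shown because they hold the most and the fewest among the 9 members called in at least 3 lines, with the matches in capitals (RefSeq, TAIR10.1, 5′ to 3′ towards the gene).
WRKY30 (chr5:8154711-8154960, minus strand): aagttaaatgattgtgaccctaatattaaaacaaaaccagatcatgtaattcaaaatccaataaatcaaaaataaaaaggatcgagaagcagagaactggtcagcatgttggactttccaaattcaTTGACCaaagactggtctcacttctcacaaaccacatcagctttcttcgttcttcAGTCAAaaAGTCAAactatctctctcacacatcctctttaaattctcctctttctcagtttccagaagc
WRKY46 (chr2:19044956-19045205, minus strand): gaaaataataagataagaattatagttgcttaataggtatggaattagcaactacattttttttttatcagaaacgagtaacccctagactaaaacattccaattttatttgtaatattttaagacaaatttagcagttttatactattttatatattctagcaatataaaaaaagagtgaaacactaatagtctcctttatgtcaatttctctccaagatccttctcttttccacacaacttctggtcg
WRKY8, WRKY54, WRKY60 and WRKY70 had 0 boxes in theirs as well. A match is no evidence of binding, and the 2 genes shown were both lower in At1++ and At2++ and had unlike values in At3+.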

How the data were processed

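Stranded poly(A) mRNA libraries were made from whole seedlings and sequenced single-end. Per the study's methods, reads were trimmed by the authors (Trimmomatic), aligned with the Araport annotation (STAR), counted per gene (HTSeq) and normalised with DESeq2, in versions not given in the sources used here. The deposited values are thus a signal of normalised counts, for 25263 genes in 21 libraries, with 0 columns of other series. Every value was a whole multiple of the worth of 1 read in its library (100% whole within a tolerance of 0.01), and reads recovered this way gave the depths, the floor of 3 reads and the count tests.

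The main test was limma 3.58.1 (R 4.3.3, trend, two-sided) on log2(value + 1) with all 7 groups in 1 fit, over 22222 genes whose mean was 1 or more, with Benjamini-Hochberg adjustment over all of them. On the log2 scale with a pseudocount of 1, changes of low genes are understated. Calls needed an adjusted p under 0.05 and a log2 fold change of 1 or more in size. The alternatives were edgeR 4.0.16 (quasi-likelihood, TMM) and DESeq2 1.42.0 on recovered reads, no filter, a pseudocount of 0.1, a replicate block, only the libraries compared, no minimum fold change, scaling to the total over nuclear genes, each library left out in turn and, chosen after seeing the data, the order of the AtIPCS2 or AtIPCS3 lines turned. On simulated data with 200 genes changed (At2++ against Col-0), limma called all 200 and 5 unchanged genes of 22232 tested. There edgeR called 199 and 4 of 20114, and DESeq2 199 and 1 of 23117. The changed genes were drawn without the low genes, and each was given a change well above the minimum fold change. The simulation thus does not cover low genes or changes near that minimum.

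Values in every library are given for members called against Col-0 in at least 3 of the 6 lines, and any other member called is named with its log2 fold change. Counts were also made in lists of other WRKY genes, VQ-motif, MAP kinase, salicylic acid, WRKY33-target, touch and wound, clock and senescence genes and leaf, root, trichome and seed markers. The members and lists were chosen with earlier results of these data known. Gene positions, coding stretches and the 250 upstream bases came from RefSeq's TAIR10.1 by locus identifier. Intervals cover counting error only.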

Additional observations from a re-analysis of the deposited data

Results flagged for a closer look

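The members below were singled out because their change from the line labelled + to the line labelled ++ differed between isoforms in limma's test of the difference itself. Values are differences of log2 fold changes, AtIPCS1 minus the other isoform. Against AtIPCS2 they were WRKY8 (-2.16), WRKY18 (-2.11), WRKY22 (-1.27), WRKY26 (-1.42), WRKY27 (-1.10), WRKY30 (-1.63), WRKY33 (-1.55), WRKY40 (-2.02), WRKY45 (-1.27), WRKY46 (-1.77), WRKY53 (-1.48), WRKY70 (-1.28) and WRKY75 (-1.24), with WRKY38 (2.21) higher, among 6.75% of all genes called. Of these, WRKY30 was lost with DESeq2 (adjusted p = 0.101), with only the libraries compared (0.0569) and without At1+ replicate 2, At1++ replicate 1 or At2++ replicate 2, and WRKY46 was lost without At1+ replicate 2, At1++ replicate 2 or At2++ replicate 2 (adjusted p from 0.0556 to 0.0745).

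Against AtIPCS3 they were WRKY7 (-1.29), WRKY8 (-2.76), WRKY11 (-1.21), WRKY18 (-1.52), WRKY22 (-1.66), WRKY25 (-1.30), WRKY26 (-1.20), WRKY27 (-1.51), WRKY28 (-1.53), WRKY33 (-1.69), WRKY40 (-2.22), WRKY45 (-1.20), WRKY65 (-1.0), WRKY70 (-1.13) and WRKY72 (-1.37), with WRKY42 (1.63) higher, among 7.92% of all genes called. WRKY65 did not reach the minimum fold change with the nuclear scaling (-0.88) or without At1+ replicate 1 or 3, At1++ replicate 2, At3++ replicate 3 or At3+ replicate 3, and WRKY42 was lost without At3+ replicate 3 (adjusted p = 0.0534). WRKY42 regulates the phosphate exporter PHO1, and WRKY7 and WRKY11 belong to subgroup IId, of which limma called 0 members in any line against Col-0. The AtIPCS2 and AtIPCS3 transcripts ran against the order of their labels. With the order of the lines of the second isoform turned, an alternative chosen after seeing the data, WRKY18 (-0.43), WRKY70 (-0.32), WRKY75 (-0.40) and WRKY38 (1.01, adjusted p = 0.0623) were no longer called against AtIPCS2, and 13 others were, among them WRKY28 (-3.72), WRKY72 (-3.26) and WRKY48 (-1.86). Against AtIPCS3, WRKY7 (-0.44), WRKY11 (-0.61), WRKY65 (-0.90), WRKY70 (-0.46) and WRKY42 (0.03) were no longer called, and 9 others were, among them WRKY30 (-4.99), WRKY55 (-3.43) and WRKY38 (2.45). The summed level of touch and wound genes differed between the AtIPCS1 lines as given above, and its part in these differences was not tested.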

How the results depend on the processing

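No named log2 fold change that was called changed sign under any alternative. Of those not called, WRKY8 in At1+ ranged from -0.0053 to 0.27, and the members' median in At1+ was -0.04 with the nuclear scaling. Turning the order of the AtIPCS2 lines, chosen after seeing the data, gave 23 members called in the difference between AtIPCS1 and AtIPCS2. With no minimum fold change, the members called numbered 34 in At2++, 31 in At1++, 25 in At2+, 23 in At3++, 21 in At1+ and 8 in At3+ against Col-0, 36, 19 and 13 between the lines of AtIPCS1, AtIPCS2 and AtIPCS3, and 24 in the difference between AtIPCS1 and AtIPCS2. The share of all genes with no minimum fold change was not counted. Limma's unadjusted p was under 0.05 in 12635 of the 22222 genes in At2++, 10333 in At1++ and 11264 in At2+. It was so in 10373 in At3++, 8379 in At1+ and 4718 in At3+, and in 12051, 7246 and 7437 between the lines. Scaling to the total over nuclear genes called 20 members in At2++. In At3+ both edgeR and a fit of only the libraries compared called 7. Leaving out 1 library at a time, the calls ranged from 14 to 17 in At1++, 9 to 14 in At2++, 7 to 9 in At2+, 4 to 7 in At3++, 3 to 4 in At1+ and 2 to 5 in At3+. They ranged from 17 to 19, 2 to 4 and 3 to 4 between the lines of AtIPCS1, AtIPCS2 and AtIPCS3, and from 12 to 16 and 14 to 17 in the differences against AtIPCS2 and AtIPCS3. Over the 123 log2 fold changes and differences named, leaving out a library weakened 48 of the 2460 values to below a threshold and lifted 4 above it. Of the 123, DESeq2 weakened 3 and lifted 2. EdgeR lifted 2 and left 112 as they were, and gave no value for the rest. The nuclear scaling weakened 1 and lifted 4, and a fit of only the libraries compared weakened 1 and lifted 2. A pseudocount of 0.1 weakened 2, and dropping the filter changed no call.

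The replicate numbers do not pair the libraries: the deviations of same-numbered libraries had a median correlation of -0.026 over 57 pairs, 4 of them over 0.1, and 0 of the 20 libraries correlated best with their own number. With the replicate number as a block, the calls were 4 in each of At1+ and At3+, 6 in At3++, 8 in At2+, 11 in At2++ and 15 in At1++, 17, 3 and 4 between lines, and 14 and 16 in the differences, as without the block.

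Each group is 1 line, and At3+ has 2 libraries. At a depth of 12733113 to 17210244 reads, WRKY41 and the other members with means under 10 rest on few reads. edgeR tested 49 of the 51 members.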
